A study of Homo sapiens with 4 samples.

Results

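The regions described here are those marked by ETS1 in CUT&Tag of the cell line 6T-CEM, a human line of T-cell leukaemia. Per the labels, 2 libraries were made with an ETS1 antibody and 2 with a RUNX1 antibody, all from 6T-CEM cells with no treatment or change of genotype named, and the authors called peaks in each library against IgG, an antibody with no specific target. Peaks of both ETS1 libraries on chromosomes 1 to 22 and X were merged where they touched, and only merged regions with a peak from library 1 and one from library 2 were kept. This gave 5055 ETS1 regions of 27857 regions of both antibodies in the series, the other 22802 being RUNX1 regions built the same way. All libraries come from this 1 line, and the labels do not say whether libraries of an antibody came from separate cultures, so a spread over libraries is that between these libraries and may be technical.

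ETS1 gave its name to the ETS transcription factors, which bind DNA at a GGAA core through a winged helix-turn-helix domain, and it is strongly expressed in lymphoid cells. Promoters of housekeeping genes often carry the longer form CCGGAAGT, which many ETS proteins can bind, while CAGGAAGT is a form found at lymphoid enhancers and promoters. In CUT&Tag the antibody tethers the transposase Tn5, which cuts the chromatin around the bound protein, so a peak marks the neighbourhood of ETS1 and of open chromatin rather than a single base.

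The promoters below are shown because each belongs to the strongest ETS1-marked start of its gene class that passed a filter. The last 120 bases before the start, in the RefSeq promoter entry, had to hold an ETS form and overlap no listed gene. Stronger starts that failed this were passed over. Each line gives the last 120 bases before the start, on the strand of the gene, from RefSeq (GRCh38.p14, the assembly of hg38), with the ETS letters in capitals.
RPS25 (ribosomal protein, chr11:119018344-119018463, minus strand): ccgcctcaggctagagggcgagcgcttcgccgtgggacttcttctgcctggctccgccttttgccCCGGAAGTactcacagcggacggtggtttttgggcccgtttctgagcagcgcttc
SF3A2 (splicing, chr19:2236704-2236823, plus strand): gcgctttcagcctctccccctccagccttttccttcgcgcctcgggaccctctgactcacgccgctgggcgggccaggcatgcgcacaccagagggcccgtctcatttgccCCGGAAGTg
EIF2A (translation initiation, chr3:150546667-150546786, plus strand): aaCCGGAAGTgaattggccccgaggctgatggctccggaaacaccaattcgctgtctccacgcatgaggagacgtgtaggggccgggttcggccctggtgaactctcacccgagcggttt
ZNF384 (zinc finger, chr12:6689573-6689692, minus strand): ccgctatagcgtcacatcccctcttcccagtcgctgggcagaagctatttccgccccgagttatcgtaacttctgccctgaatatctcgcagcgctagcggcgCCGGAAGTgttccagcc
ELK4 (ETS family, chr1:205632012-205632131, minus strand): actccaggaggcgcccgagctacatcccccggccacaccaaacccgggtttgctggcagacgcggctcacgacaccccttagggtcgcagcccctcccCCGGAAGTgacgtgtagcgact
LCK (T-cell kinase, chr1:32251145-32251264, plus strand): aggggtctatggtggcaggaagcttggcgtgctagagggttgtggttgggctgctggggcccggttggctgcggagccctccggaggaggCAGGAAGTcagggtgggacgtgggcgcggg

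Counting the base before the start as position -1, the ETS letters begin at -55 in RPS25, -9 in SF3A2, -118 in EIF2A, -17 in ZNF384, -22 in ELK4 and -30 in LCK. The fold over IgG, the authors' value for the peak, was 7.85 and 6.86 at RPS25 (mean 7.35 ± 0.698, SD, n = 2), with the summit at -273 in both libraries. At SF3A2 it was 13.5 and 13.8 (13.6 ± 0.237), at ZNF384 14.5 and 13.9 (14.2 ± 0.427), and at ELK4 3.79 and 4.08 (3.93 ± 0.205). EIF2A had 3.40 and 3.47 (3.44 ± 0.0541), where the lowest mean fold at any marked coding gene was 2.43. The LCK region had 5.94 and 5.54 (5.74 ± 0.285) with its summits at -999 and -1103 from the start shown, so the ETS letters of that window lie away from the strongest signal.

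2 further starts are shown because their signal was among the strongest although the last 120 bases hold neither ETS form. In H3C2, a replication-dependent histone gene, the capitals mark CCAAT, the letters bound by NFY. That histone start was chosen after its values were seen.
H3C2 (histone H3, chr6:26032100-26032219, minus strand): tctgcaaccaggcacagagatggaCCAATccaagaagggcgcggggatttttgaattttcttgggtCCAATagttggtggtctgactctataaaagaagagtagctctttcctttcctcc
SLC35E2B (solute carrier, chr1:1692796-1692915, minus strand): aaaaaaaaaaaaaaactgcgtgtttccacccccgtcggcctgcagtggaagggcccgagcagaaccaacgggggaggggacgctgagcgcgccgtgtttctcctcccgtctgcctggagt

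The fold at H3C2 was 51.4 and 53.6 (52.5 ± 1.56, SD, n = 2), and at SLC35E2B 72.6 and 71.0 (71.8 ± 1.14). The SLC35E2B signal was a pileup of 2324 and 2086 reads or fragments at the summit over an IgG expectation of 31.0 and 28.4. A neighbouring pseudogene, SLC35E2A, is a near-identical copy, and the highest fold of all ETS1 regions, 109.66 and 109.72 (109.7 ± 0.0403), lay over its end at chr1:1745859-1746828. Reads may map to either copy, so the place of both signals is uncertain.

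The libraries held 6070 and 5611 ETS1 peaks on the chromosomes used, and 12 and 14 peaks elsewhere were left out. Depth is unknown, since the lists give no read totals, but the pileup at each summit could be solved from the deposited fold and −log10 p. Its median was 54 and 51, with 90% of peaks between 27 and 143 in library 1 and between 26 and 134 in library 2. Of these peaks 5070 and 5099 fell in the 5055 regions. The 1000 and 512 that did not were weaker and narrower: the median fold was 4.21 and 4.44 against 5.81 and 5.79 inside regions, and the median width 389 and 376.5 bp against 643 and 600 bp. Across the 5055 regions the fold in library 1 and that in library 2 had a Spearman's rho of 0.925.

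ETS1 regions lay mostly at the ends of protein-coding genes, and there far more often at the start than at the far end. Of the 5055 regions, 3099 (61.3%, 95% Wilson interval 59.95 to 62.6, which covers counting error only) were within 1 kb of an end of a coding gene. Another 1196 (23.7%) lay inside coding genes and 760 (15.03%) outside them. The median fold differed little between the 3 places, with 5.82 at ends, 5.71 inside and 6.04 outside. Strand and start sites came from the RefSeq promoter table, which covers 15813 coding genes here and has no chromosome 8 entry, so that chromosome was not analysed for starts. A region was within 1 kb of the 5′ end of 3032 of these genes (19.2%) and of the 3′ end of 441 (2.79%). Among the 13483 genes longer than 5 kb, where the windows cannot meet, the counts were 2592 (19.2%) and 284 (2.11%). For 155 of those 284 genes (54.6%) the region at the 3′ end was also within 1 kb of the start of a coding gene.

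Summits gathered in the 300 bp on either side of a start and leaned to the side before it. Of the ETS1 summits on chromosomes with start sites, 53.4% and 54.7% were within 1 kb of a listed coding start (54.0 ± 0.911, SD, n = 2), 45.3% ± 1.04 within 300 bp and 19.8% ± 0.515 within 100 bp. The median signed distance was -48 and -54 bp, where negative means before the start, and 58.4% ± 0.614 of these summits lay before the start. For RUNX1 29.8% ± 0.0733 of summits were within 1 kb, with a median of -13 and -14 bp and 52.4% ± 0.134 before the start. All ETS1 values lay outside the range of the RUNX1 values. The RUNX1 lists were longer, with 24608 and 24240 summits against 5953 and 5500 for ETS1. In counts, 7348 and 7213 RUNX1 summits were within 1 kb, against 3178 and 3007 for ETS1. The part of list length in the shares was not tested. Among summits within 1 kb of either end of a coding gene with a known strand, 95.1% and 95.2% of ETS1 summits and 91.7% and 91.8% of RUNX1 summits were at the start end. The difference of 3.41 percentage points gave an exact permutation p of 0.333 (two-sided), the smallest that 2 against 2 libraries allow.

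**Figure D1:**
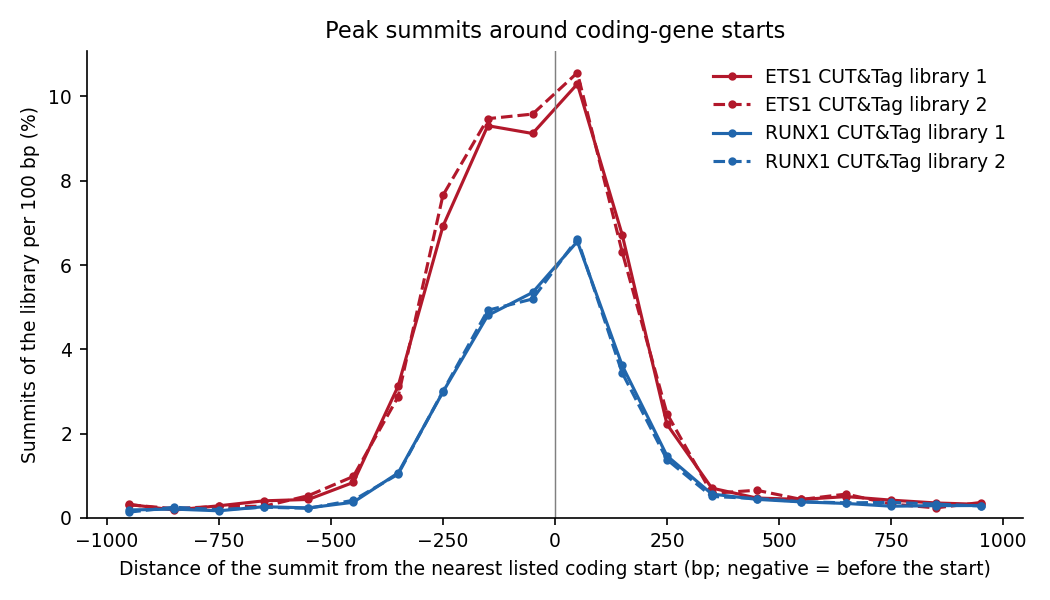
Share of each library's summits (y axis, percent per 100 bp) by distance from the nearest listed coding start (x axis, bp, negative before the start), 1 line per library. The ETS1 lines lie above the RUNX1 lines between -400 and 300 bp, and the libraries of an antibody nearly coincide.

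ETS1 marked 3767 of 19821 protein-coding genes (19.0%) within 1 kb of an end, with a median fold of 5.92. Gene classes departed from that share in both directions. Of 35 coding classes, 17 lay above it and 18 below, and no class changed side when peaks were required to reach a −log10 q of 10, to overlap reciprocally by 50%, or when a single library was used. Class shares below are descriptions beside the share of 19.0% over all coding genes, with no test. The Wilson intervals of several classes span that share.

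**Figure D2:**
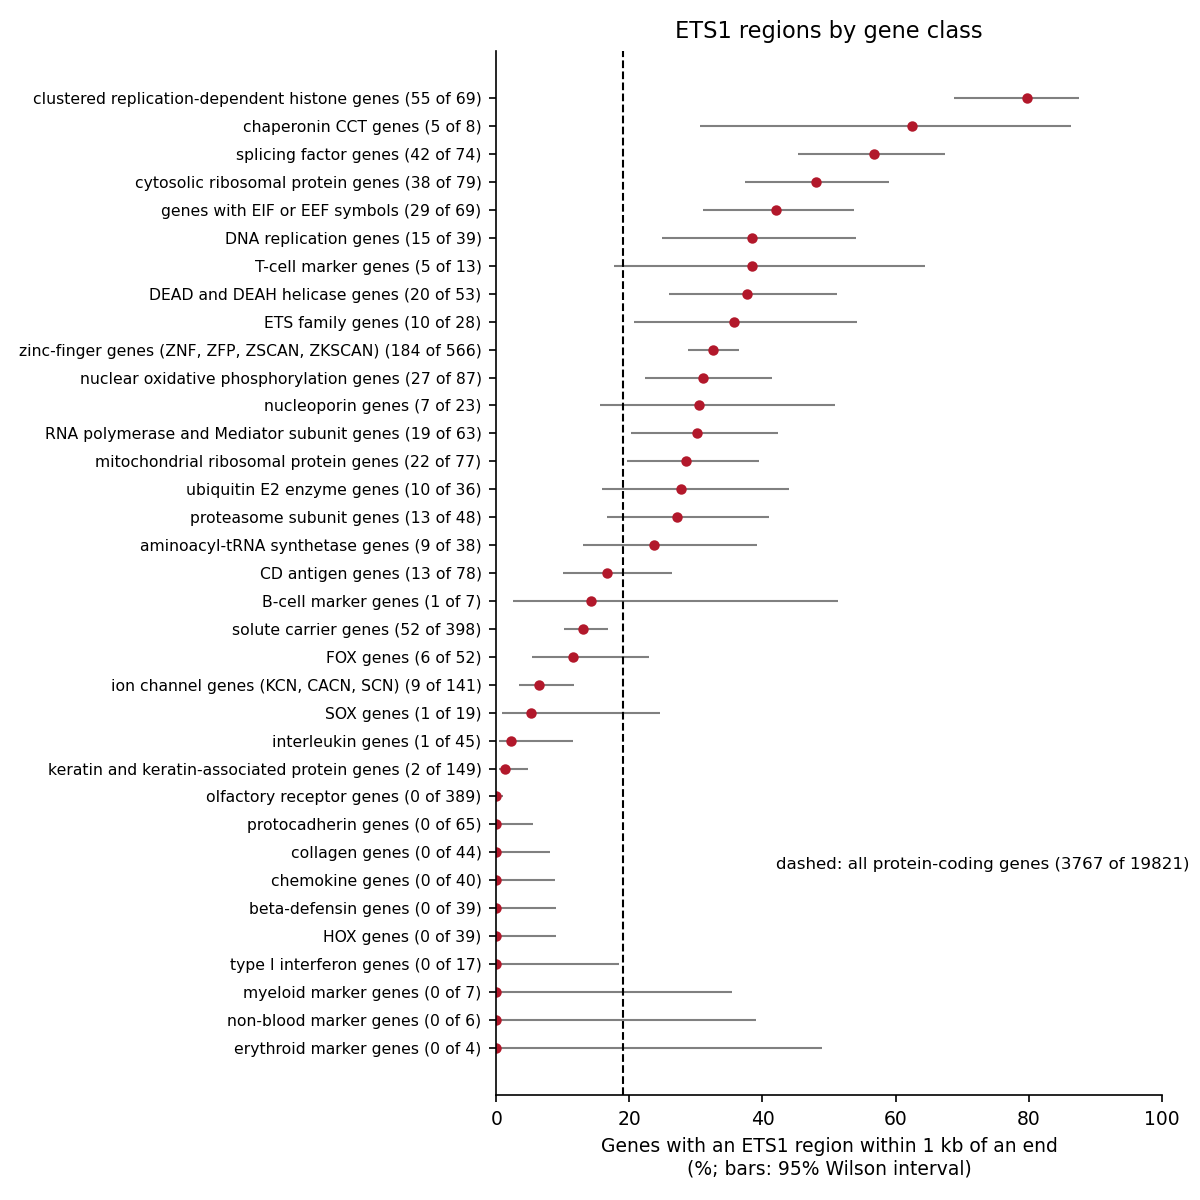
Share of each coding gene class with an ETS1 region within 1 kb of a gene end (x axis, percent; dots with 95% Wilson intervals; counts in the labels), beside the share over all protein-coding genes (dashed line). Histone genes are at the top with 55 of 69, and olfactory receptor genes have 0 of 389.

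Clustered replication-dependent histone genes, which supply histones for S phase and lie in gene arrays, had the highest share. ETS1 was at 55 of 69 (79.7%): 5 of 6 H1 genes, 13 of 17 H2A, 16 of 18 H2B, 10 of 13 H3 and 11 of 15 H4 genes. Each gene was given the fold of the strongest region that touched its ends, which can be a neighbour's in such dense arrays. The median fold over these genes was 29.9, against 5.92 over all marked coding genes, and the range was 7.18 to 54.3. H4C2 had 53.3 and 55.2 (54.3 ± 1.35, SD, n = 2). The region nearest to H3C2 had 51.4 and 53.6 and was also within 1 kb of H2AC4, whose own nearest region had 20.8 and 23.4. The region nearest to H2BC5 had 46.6 and 50.6 (48.6 ± 2.84) and was also within 1 kb of H1-4, whose own nearest region had 27.7 and 25.1. H4C8 differed most between libraries among these, with 54.4 and 42.6 (48.5 ± 8.34). Of the 50 regions with the highest fold, 24 were at histone genes.

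Fold and signal ranked the histone regions differently. Their 44 regions had a median pileup of 107, higher than that of 87.4% of all ETS1 regions, while their median fold of 27.7 was higher than that of 99.1%. The IgG expectation was low there, with a median of 2.95 against 9.52 at all coding-gene ends. It was under 3 at 23 of the 44 histone regions and at 160 of the other 5011 regions (3.19%). Its part in the histone folds was not tested. At H4C2 the pileup was 134 and 131 over an expectation of 1.53 and 1.39. H3C2 and H2BC5 had the same expectation, whose mean of 1.46 was the lowest at any coding-gene end. The folds at these histone genes thus rest on the floor of the IgG expectation there. The genes are similar in sequence, and how reads with several matches were handled is not given in the sources used here, so values of single histone genes are uncertain. Of the 14 histone genes without a region, 6 were H2AC18, H2AC19, H3C14, H3C15, H4C14 and H4C15, which form near-identical pairs. H1-6, H2AC1 and H2BC1, whose known expression is in the testis, had none either.

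**Figure D3:**
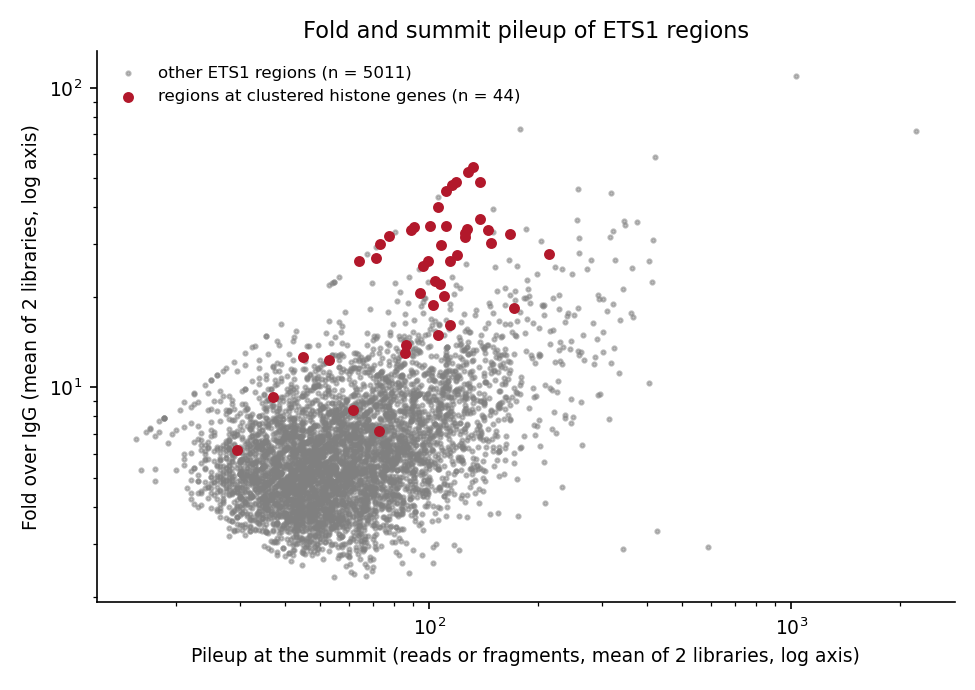
Fold over IgG (y axis) against the pileup at the summit (x axis) for the 5055 ETS1 regions, both as the mean of 2 libraries on log axes, with the 44 regions at clustered histone genes in red. Most of the histone regions lie at high fold over a middle range of pileup.

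By pileup, other starts led. DBP, a clock-controlled bZIP factor, had 436 and 406 over a fold of 58.8 and 59.1 (58.9 ± 0.209, SD, n = 2). The region shared by EIF3B, a subunit of the initiation factor that loads the small ribosomal subunit, and SNX8 had a pileup of 434 and 398 at a fold of 31.0 and 31.1. SLBP, which encodes the stem-loop binding protein of histone mRNA, had 430 and 377 at a fold of 27.02 and 25.9. PHRF1 had 439 and 384 at 22.99 and 21.9, and RALY, an RNA-binding protein gene, 423 and 387 at only 9.45 and 11.2, over an IgG expectation of 43.9 and 33.7. Other starts among the 10 highest folds were WRAP53, which encodes a Cajal body and telomerase protein (45.7 and 46.1), and the lipid kinase gene PIP4K2B (43.6 and 45.3).

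Several classes of RNA processing and protein synthesis also had shares above 19.0%. Splicing factor genes had a region in 42 of 74 cases (56.8%), with the highest folds at SRSF1 (17.7 and 15.6) and SRSF2 (16.2 and 16.9), SR proteins that set exon choice, then SF3A2 and SNRPA (11.6 and 11.4), the U1 protein gene. Cytosolic ribosomal protein genes had 38 of 79 (48.1%), led by RPS19 (22.5 and 23.1, mean 22.8 ± 0.408, SD, n = 2) and RPL19 (15.2 and 14.3). Genes with EIF or EEF symbols had 29 of 69 (42.0%), and after EIF3B came the helicase gene EIF4A1 (14.6 and 16.0). DEAD and DEAH RNA helicases had 20 of 53 (37.7%), led by DDX5 (13.7 and 15.1). The chaperonin genes had 5 of 8 at folds of 3.39 to 7.14. The median folds of these classes, 4.37 to 7.17, lay on either side of the 5.92 of all marked coding genes.

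Other classes also had shares above 19.0%. DNA replication genes had a region in 15 of 39 cases (38.5%), and the strongest was at CDC45, a part of the replicative helicase (23.004 and 23.8, mean 23.4 ± 0.536, SD, n = 2), followed by the licensing factor gene CDT1 (14.0 and 12.9). RNA polymerase and Mediator genes had 19 of 63 (30.2%), led by POLR1G (21.8 and 20.9), nuclear oxidative phosphorylation genes 27 of 87 (31.0%), led by NDUFA11 (14.8 and 13.8), and mitochondrial ribosomal protein genes 22 of 77 (28.6%), led by MRPS18B (19.1 and 20.8). Proteasome subunit genes had 13 of 48 (27.1%, interval 16.6 to 41.0), led by PSMA7 (16.2 and 15.4), and aminoacyl-tRNA synthetase genes 9 of 38 (23.7%, 13.0 to 39.2). Both intervals span the share over all genes. Zinc-finger genes, the largest class of DNA-binding proteins, had 184 of 566 (32.5%, 28.8 to 36.5). They were led by ZNF200 (16.5 and 21.0) and the region shared by ZNF324 and ZNF446 (16.9 and 17.99). ZNF324 and ZNF446 lie on chromosome 19, where 38.9% of all 1410 coding genes were marked, above the share of this class. The zinc-finger share was not computed by chromosome, so the part of chromosome 19 in it was not tested.

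Several classes had shares below 19.0%. No region was found at 389 olfactory receptor genes, which allows a share of up to 0.771%, nor at 65 protocadherin genes (up to 4.62%), 44 collagen genes (up to 6.82%), 40 chemokine genes (up to 7.5%), or 39 HOX and 39 beta-defensin genes (up to 7.69% each). The 17 type I interferon genes had none either, but so few genes allow a share of up to 17.6%, close to that of all genes. FOX genes had 6 of 52 (11.5%), SOX genes 1 of 19, and CD antigen genes 13 of 78 (16.7%). Keratin and keratin-associated genes had 2 of 149 (1.34%), KRT2 with 14.3 and 12.3 and KRTAP16-1 with 5.98 and 6.31. Interleukin genes had 1 of 45, IL32 (4.57 and 4.92), and ion channel genes 9 of 141 (6.38%). Solute carriers, which include both common and tissue-bound transporters, had 52 of 398 (13.1%). Grouped by the letters at the start of the symbol, 103 roots had at least 20 genes. The highest shares were at H (63.2%), RAD (50%), ZBTB (47.6%), EIF (43.6%) and CDK (42.9%), and 10 roots with 640 genes together had no region, among them OR, COL, DEFB, TAS and CCL.

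T-cell marker genes carried ETS1 regions at an end or further away. Of 13 T-cell markers, 5 were marked at an end and 5 others only inside the gene or within 10 kb, 10 in all, where the share over all coding genes was 27.5%. CD3E and CD3D, which encode subunits of the CD3 complex, had 14.4 and 12.3 (13.4 ± 1.51, SD, n = 2) and 10.05 and 6.11 (8.08 ± 2.79) at an end. LCK had 5.94 and 5.54, BCL11B, a T-lineage commitment factor, 3.62 and 3.76, and CD7 3.67 and 3.45. PTCRA, the pre-T-cell receptor alpha gene, had no region at an end but one of 12.6 and 13.4 within 10 kb, and TCF7, CD247 and ZAP70 also had theirs away from the ends. The region counted for CD3G is the one at the end of its neighbour CD3D. That of PTCRA and others counted only within 10 kb may likewise lie at a neighbouring gene, which was not tested. CD2, CD5 and GATA3 had none within 10 kb. None of 7 myeloid and 6 non-blood markers had a region within 10 kb, but such short lists allow shares of up to 42.9% and 50%, above the 27.5% of all coding genes. Of 7 B-cell markers, VPREB1 had one at an end (4.39 and 4.15) and CD79A one within 10 kb, and of 4 erythroid markers KLF1 and EPOR had one within 10 kb and none at an end.

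Genes of the ETS family itself carried ETS1 at an end in 10 of 28 cases (35.7%, interval 20.7 to 54.2). The highest folds were at ETV2 (9.80 and 9.15, mean 9.48 ± 0.458, SD, n = 2), a factor of early blood and vessel development, the repressor gene ERF (9.10 and 8.52) and ETV5 (8.92 and 8.16). ELK1 (5.70 and 7.40) and ELK4, which act with serum response factor, ETS2 (6.09 and 6.46), ELF1 (4.55 and 3.82), ETV3 (4.31 and 4.001), GABPA (4.11 and 4.19) and ETV6 (3.78 and 4.12) had lower values. The ETS1 gene had no region at its outermost ends and 1 inside it (4.91 and 4.94). ERG had 1 inside the gene or within 10 kb, of 16.2 and 13.4, and ELF2 and ELF4 had 1 each. ETV2, the highest, and ERF lie on chromosome 19. EHF, ELF3, ELF5, ELK3, ETV1, ETV3L, ETV4, ETV7, FEV, FLI1, SPDEF, SPI1, SPIB and SPIC had none within 10 kb.

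Among noncoding classes, small nuclear RNA genes with RNU or RNVU symbols had the highest share. These spliceosomal and related genes had a region at 21 of 41 (51.2%), beside 20.1% of all 149 small nuclear RNA genes. The highest folds were at RNU11 (19.6 and 20.2), RNU1-2 (14.4 and 15.5) and RNU2-2 (14.6 and 14.5). Several RNU genes have near-identical copies, so their values are uncertain. Host genes of small nucleolar RNAs had 10 of 29 (34.5%), led by SNHG29 (20.2 and 20.4), against 5.51% of 17904 long noncoding RNA genes. All small nucleolar RNA genes together had 34 of 1190 (2.86%), with 31 of 539 (5.75%) in the class set by symbol. MicroRNA genes had 104 of 1911 (5.44%). Transfer RNA genes had 63 of 429 (14.7%), at a median fold of 7.24, and the highest of these, 54.4 and 42.6 at TRX-CAT1-2, was the region of H4C8. Antigen receptor variable segments had 20 of 235 (8.51%), with the highest fold at IGHV1-69 (15.9 and 14.4).

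Chromosome 19 held the most regions for its genes. It had 720 regions (14.2%), and 38.9% of its 1410 coding genes had one at an end. Chromosomes 16 (29.8%), 17 (28.9%) and 22 (28.0%) followed, and X (8.25%), 4 (9.55%) and 8 (9.90%) were lowest. Per 100 coding genes there were 51.1 regions on chromosome 19 and 10.1 on X.

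Neighbouring regions formed 73 clusters of at least 5 regions with gaps of at most 20 kb, which held 478 regions (9.46%). The largest, 15 regions over 129.8 kb at chr6:26156227-26285996, ran from H1-4 to H4C8 with folds of 12.4 to 48.6 and a median of 31.8. A second histone cluster of 8 regions (chr6:26017431-26056535, H1-1 to H1-2, median fold 27.8) and another of 8 (chr6:27806799-27839365, H2BC13 to H2BC15, median 20.4) lay on the same chromosome. The other clusters with most regions had median folds of 5.47 to 9.69. A run of 10 regions over 31.8 kb of chromosome 19 (chr19:12775398-12807161) covered HOOK2, JUNB, PRDX2, THSD8 and RNASEH2A. For 3 of those at gene ends the nearest gene was JUNB, a subunit of AP-1, and the strongest, next to THSD8, reached 23.6 and 29.6.

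A cluster of 10 regions on chromosome 6 (chr6:31541577-31593194) lay over immune genes of the class III region of the major histocompatibility complex. From DDX39B (9.23 and 9.83) and NFKBIL1 (9.58 and 9.71) it ran over LTA, TNF and LTB, the tumour necrosis factor family cytokines, to LST1 and NCR3. The region next to the TNF end had 7.23 and 7.12, those next to LTB 5.66 and 5.27 and 3.94 and 5.33, and that at NCR3 4.53 and 4.83. All 8 coding genes of the cluster had a region at an end. Others with 10 regions included HES7 to BORCS6 with the clock gene PER1 on chromosome 17 and EMC9 to TINF2 with IRF9 and the proteasome activator gene PSME2 on chromosome 14. A cluster of 9 regions on chromosome 17 ran from MCRIP1 to PYCR1, and one of 8 on chromosome 19 from GSK3A to PRR19 with ERF and CIC. Chromosome 19 held 18 of the 73 clusters, chromosome 17 held 13, chromosome 6 held 8 and chromosome 11 held 7.

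ETS1 regions were narrow. The median width was 681 bp and 90% lay between 361 and 1625 bp, with 112 regions (2.22%) wider than 2 kb and 3 wider than 5 kb. Together they covered 4065 kb. Width rose with the number of coding genes that start in the region, from a median of 637 bp with 0 starts to 710 bp with 1, 846 bp with 2 and 1059 bp in the 13 regions with 3 or more. The 339 regions that held starts on opposite strands had a median of 852 bp, against 711 bp where the starts were on 1 strand. Width also went with strength: it rose from 558.5 bp in the 1264 regions of lowest fold to 949.5 bp in the 1264 of highest fold. Over the 5055 regions Spearman's rho of width was 0.397 with fold, 0.399 with pileup and 0.0389 with the IgG expectation. These are descriptions over regions, and the part of the signal's height in the width was not tested.

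**Figure D4:**
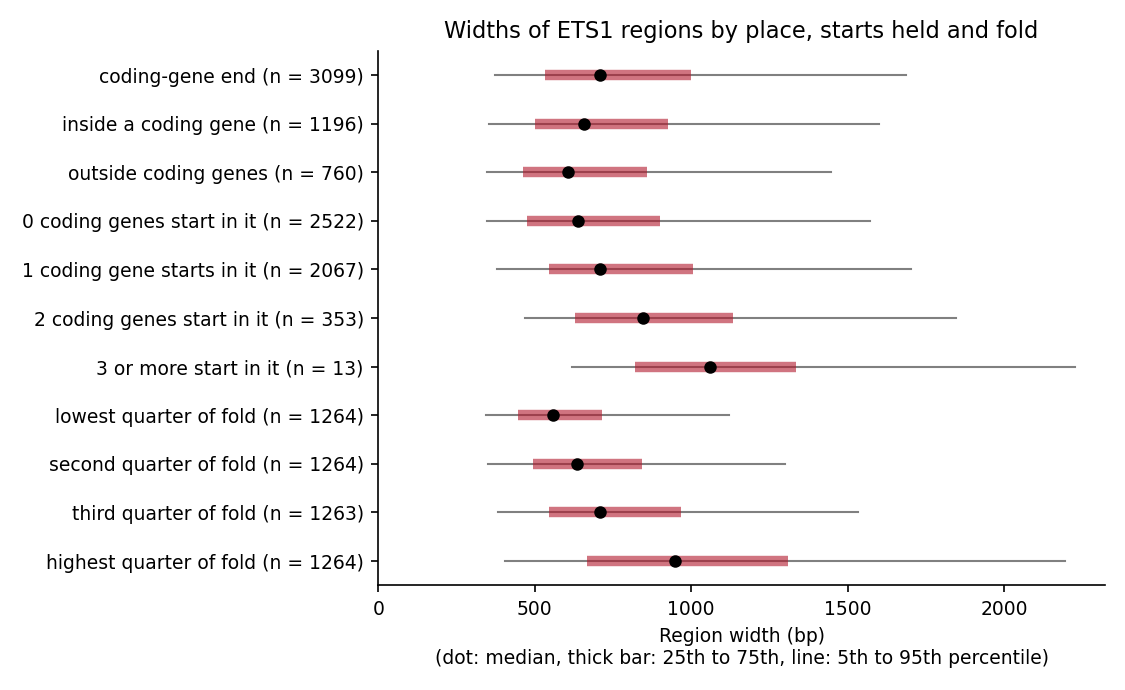
Widths of ETS1 regions (x axis, bp; dot median, thick bar 25th to 75th and line 5th to 95th percentile) by place, by the number of coding genes that start in them and by fold. Medians rise from 637 to 1059 bp with the number of starts and from 558.5 to 949.5 bp with fold.

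Single peaks were narrower for ETS1 than for RUNX1. The median was 587 and 574 bp in the ETS1 libraries (580.5 ± 9.19, SD, n = 2) and 753 and 741 bp in the RUNX1 libraries (747 ± 8.49). The difference of -166.5 bp (ETS1 minus RUNX1) was larger than the spread between libraries, and the exact permutation p was 0.333 (two-sided), the smallest possible. The median IgG expectation was 9.22 and 8.52 in ETS1 against 8.96 and 8.52 in RUNX1, while the median pileup was 54 and 51 against 75 and 71.

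The widest region, 5770 bp at chr9:136528496-136534265, lay inside NOTCH1, the receptor gene often mutated in T-cell leukaemia, with its summit 12546 bp from the nearest end of the gene. It joined 2 peaks of library 1 and 3 of library 2, with folds of 6.97 and 5.90. CCND3, which encodes the G1 cyclin D3, had a region of 4244 bp (6.27 and 7.87) over a listed start inside the gene. The immediate early gene IER2 shared 3847 bp with STX10 (8.95 and 9.30), the DBP and CA11 region was 3818 bp (58.8 and 59.1), and the T-cell adaptor gene LIME1 had 3507 bp (4.42 and 4.66). SSBP4 had 5247 bp inside the gene (8.86 and 9.24), VPS9D1 with ZNF276 3494 bp (8.56 and 8.84), and 3482 bp lay 4333 bp from TSPOAP1 (14.0 and 14.4). The other 2 of the 10 widest lay away from coding starts. The first was 5326 bp on chromosome 3, 55313 bp from LMLN (74.7 and 70.7). Its IgG expectation of 1.53 and 1.39 was the same as at H4C2. The second was 4931 bp over LOC107985915 on chromosome 2 (22.9 and 22.2). Of the regions wider than 2 kb, 73 were at a coding-gene end, 27 inside coding genes and 12 outside.

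Regions away from coding genes were fewer and narrower. The 760 regions outside coding genes lay a median of 14.9 kb from the nearest coding-gene end, 101 of them over 100 kb away, and 191 (25.1%) were within 1 kb of an end of a long noncoding RNA gene. Their median width was 607.5 bp, against 710 bp at coding-gene ends. At 3 regions the pileup was over 300 while the fold was only 2.89 to 3.32, over an IgG expectation of 118.0 to 199.6. One of them lay in DUX4, a gene of a tandem repeat array, where the place of reads is uncertain.

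ETS letters were more frequent in marked promoters, and in a minority of them. RefSeq lists 22132 promoters of 15812 coding genes, of 250 bases before to 50 after the start, and 3890 of them (17.6%) overlapped an ETS1 region. CCGGAAGT, searched on both strands, was in 11.7% of marked promoters (454 of 3890, interval 10.7 to 12.7), 3.996% of the other 18242 and 5.35% of all. CAGGAAGT was in 3.70% (3.15 to 4.34) against 2.90% and 3.04% of all. Marked promoters were richer in GC, with a median of 66% against 61%, and among promoters of at least 60% GC the shares of CCGGAAGT were 11.0% and 4.89%. Neither form was in 85.3% of marked promoters, which says only that these letters are not in the window. Read the other way, 38.4% of promoters with CCGGAAGT overlapped an ETS1 region, against 16.4% of those without. Of the 513 matches to CCGGAAGT in marked promoters, 51.9% began in the last 75 bases before the start, as in RPS25, SF3A2, ZNF384 and ELK4, and 57.2% of the 795 in other promoters did too. The matches lay a median of 133.5 bp from the region's summit.

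The few promoters with ETS1 but no RUNX1 region had the letters most often. Of the 3890 marked promoters, 3811 also overlapped a RUNX1 region and 11.2% of these held CCGGAAGT (10.2 to 12.2), while 27 of the 79 with ETS1 alone did (34.2%, 24.7 to 45.2). Promoters with RUNX1 alone had 7.31% (6.66 to 8.01, of 5707) and those with neither 2.49% (2.23 to 2.78, of 12535). The median GC was 66.3%, 60%, 67.3% and 57% in the same order. The RUNX letters TGTGGTT were in 2.57% of promoters with both, 2.53% with ETS1 alone, 3.22% with RUNX1 alone and 4.26% with neither. This comparison was chosen after the data were examined. Some genes have several listed promoters, which the intervals treat as independent, and the genes among the 79 were not counted.

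Letters of other factors also differed between marked and other promoters, each on both strands. AAGATGGCG (YY1) was in 4.34% and 2.01% (2.42% of all), the NRF1 palindrome in 2.49% and 1.29% (1.505%), TGACGTCA (the cyclic AMP response element) in 3.29% and 2.04% (2.26%), ACTACAA (ZNF143) in 3.96% and 2.61% (2.85%), GGGGCGGGG (SP factors) in 30.3% and 18.6% (20.6%), and CCAAT (NFY) in 41.6% and 33.1% (34.6%). TGTGGTT was rarer in marked promoters, at 2.57% against 3.94% (3.70% of all), as was TATAAA at 4.81% against 10.5% (9.46%). The composite of an ETS and a RUNX site, which shares letters with TGTGGTT, was in 4 marked promoters (0.103%) and 17 others (0.0932%), and 0.0949% of all. With at least 60% GC, the TGTGGTT shares were 1.72% and 1.84%, and those of TATAAA 2.65% and 3.25%. In the same promoters the SP letters were in 36.1% of marked and 31.1% of other ones, and CCAAT in 38.4% and 27.4%. The YY1 letters were in 4.13% and 2.58%, NRF1 in 2.65% and 1.88%, TGACGTCA in 3.37% and 2.64%, and ACTACAA in 3.64% and 2.11%. Of 7038 words of 7 letters, CGGAAGT with its complement ACTTCCG was in 17.9% of marked and 6.65% of other promoters, the sixth highest ratio, and the words above it were each in under 2% of marked promoters.

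**Figure D5:**
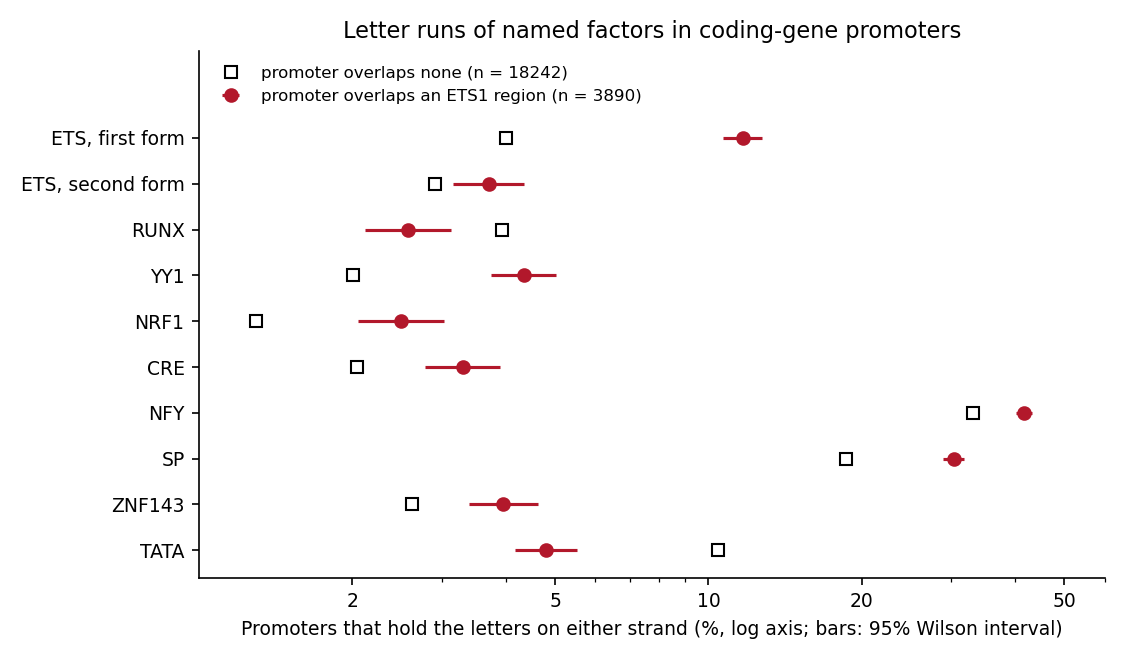
Share of coding promoters that hold the letters of each named factor on either strand (x axis, percent, log scale), for promoters that overlap an ETS1 region (red dots with 95% Wilson intervals, n = 3890) and those that do not (open squares, n = 18242). The first ETS form is CCGGAAGT and the second CAGGAAGT; the first lies furthest to the right of its square, and the RUNX and TATA letters lie to the left of theirs.

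The letters differed between gene classes. Of 53 marked histone promoters, 0 held CCGGAAGT or CAGGAAGT, 46 held CCAAT (86.8%) and 37 TATAAA (69.8%), as H3C2 shows. Over all 68 histone promoters, CCAAT was in 58 (85.3%). Of 211 marked zinc-finger promoters, 48 held CCGGAAGT (22.7%), against 15.1% of all 622. It was in 7 of 27 marked promoters of oxidative phosphorylation genes (25.9%, against 14.5% of all 83), 9 of 49 of splicing factor genes (18.4% against 15.9%) and 5 of 38 of ribosomal protein genes (13.2% against 12.8%). The share in marked promoters was below that of the whole class for mitochondrial ribosomal protein genes (11.5% against 16.5%), genes with EIF or EEF symbols (13.8% against 15.3%) and DNA replication genes (0 of 23 against 6.52%). The 390 marked promoters with the highest fold held TATAAA in 13.6% of cases and CCGGAAGT in 9.23%, against 4.81% and 11.7% of all marked promoters. These 390 include histone promoters such as that of H3C2, and the shares without histone promoters were not computed.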

How the data were processed

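The authors deposited 1 peak list for each of the 4 CUT&Tag libraries. The tools were MACS3 3.0.0a6, Bowtie2 and bcl2fastq 2.17 on build hg38, per the submitters' processing notes. For the call threshold, duplicates and the Bowtie2 version, the value is "not given in the sources used here". Among the authors' deposited columns are a score (not used), the fold over IgG at the summit (a ratio), and −log10 p and −log10 q. These values are the authors' own and served only to describe, rank or filter peaks within a list.

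From them the whole pileup was solved so that (pileup + 1)/(IgG expectation + 1) gave the fold and the Poisson tail matched −log10 p (tolerance 0.01, or 5e-05 relative). All ETS1 peaks were solved, and planted pileups were recovered in simulated data. The strongest peak of a library in a region gave the region's fold. Gene ends came from the RefSeq gene table of GRCh38.p14, without 153 coding genes on scaffolds, and starts from its promoter table. Libraries were compared by exact permutation. Python 3.11.15, pandas 2.3.3, NumPy 2.4.6, SciPy 1.17.1 and matplotlib 3.10.9 were used.

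Named genes are up to 4 members of a class by mean fold, the 10 strongest starts, 10 widest regions, 10 largest clusters, 5 highest and 5 lowest symbol roots, and every ETS family and T-cell marker gene. Genes outside that rule (those led by pileup, other markers and histone genes without a region) were chosen after their values were seen. The members and lists were chosen with earlier results of these data known. Some genes that the rule selects are not reported here.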

Additional observations from a re-analysis of the deposited data

How the results depend on the processing

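The 10 main results were recomputed under 48 alternatives. Only the 2 ETS1 minus RUNX1 differences have a sign that could reverse. The width difference stayed negative and the start-end difference positive under each alternative tried for them. The other results are counts, shares and a median width, for which no reversal was possible. Of all values, 15 moved by more than the spread between libraries, or, for a count, by over 1.5 times. The share of regions at a coding-gene end (61.3%) was 62.3% with a −log10 q of at least 10, 57.4% and 67.2% with windows of 500 and 2500 bp, and 59.0% to 60.2% with a single library. The median width (681 bp) was 718 bp at the stricter q and 574 to 587 bp with a single library, where no peaks of the other library widen a region. Clusters (73) numbered 35 and 175 with gaps of at most 10 and 50 kb. CCGGAAGT in marked promoters (11.7%) was 11.8% under reciprocal overlap, 11.9% to 11.99% with a single library, 11.0% at 60% GC or more, and 12.6% with 1 start per gene; these alternatives were added after the data were examined. With the replicate number as a block, the ETS1 minus RUNX1 differences were again -166.5 bp and 3.41 percentage points, at an exact sign permutation p of 0.5, the smallest 2 pairs allow; nothing in the labels says that equal numbers mark a shared culture or day. The unknown read totals and a median pileup near 50 limit what can be said of single weak peaks.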
